A study of Rattus norvegicus with 8 samples.

Results

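The genes described here encode proteins that make and use small regulatory RNAs: Drosha, Dgcr8, Xpo5, Dicer1, Tarbp2, Ago1, Ago2, Tnrc6a and Snd1. Members were taken by name, as every non-control probe of the array whose gene name was 1 of these 9, with Ago1 and Ago2 under their older names Eif2c1 and Eif2c2. This gave 9 probes of 8 genes out of 41012 probes, since no probe carried the name Xpo5, and 8 probes of 7 genes were bright enough to be tested among 24861. All RNA came from BRL-3A, an established line derived from rat liver, harvested 48 h after lipofectamine 2000 transfection. The labels give 4 arrays of cells given an siRNA directed at lnc19959.2, a long noncoding RNA, and 4 arrays of cells marked NC, an abbreviation the labels do not spell out. No other treatment, time or genotype separates the groups. Each array was hybridised with Cy3-labelled RNA of 1 sample, and no label says whether each came from its own culture, so p-values here reflect the spread of these arrays, which may be technical.

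Small RNA silencing runs through a short chain of proteins. In the nucleus, the Microprocessor, made of the RNase III enzyme Drosha and its RNA-binding partner Dgcr8, cuts hairpins out of primary microRNA transcripts, and Exportin-5 (Xpo5) carries the hairpins to the cytoplasm. There Dicer, with its partner Tarbp2, cuts off the loop, and 1 strand of the duplex is loaded into an Argonaute protein, which binds target mRNAs and recruits Tnrc6a, a GW-repeat scaffold for deadenylases. A synthetic siRNA enters this chain late, at Argonaute loading, and of the mammalian Argonautes Ago2 is the one best known for cutting a fully matched target. Snd1, or Tudor-SN, is a nuclease-domain protein found with the silencing complex. The comparison of siRNA with NC covers the transcripts of the machinery that a transfected siRNA uses.

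Each value rests on a single probe of 60 bases, except for Drosha with 2. The probe sequences are given because they fix which stretch of each transcript was measured, in lower case with no part marked. That of the Dgcr8 probe is not printed, since whether it lies in a UTR was not determined here.

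Drosha, brighter probe: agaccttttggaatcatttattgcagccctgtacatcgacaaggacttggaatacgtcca
Drosha, dimmer probe: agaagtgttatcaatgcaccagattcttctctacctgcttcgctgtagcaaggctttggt
Dicer1: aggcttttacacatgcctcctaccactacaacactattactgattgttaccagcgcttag
Tarbp2: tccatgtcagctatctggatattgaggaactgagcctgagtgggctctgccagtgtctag
Ago1: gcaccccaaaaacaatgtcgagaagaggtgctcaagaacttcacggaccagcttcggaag
Ago2: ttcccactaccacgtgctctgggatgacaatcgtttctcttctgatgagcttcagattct
Tnrc6a: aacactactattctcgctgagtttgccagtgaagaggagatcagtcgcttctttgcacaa
Snd1: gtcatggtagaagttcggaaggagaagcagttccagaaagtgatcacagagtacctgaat

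On the array design's rn4 build, the brighter Drosha probe lies on the plus strand at chr2:62438476-62440378 and the dimmer one at chr2:62392084-62392143. Dicer1 lies on the minus strand at chr6:128780972-128782659, Tarbp2 on the plus strand at chr7:141272639-141272826 and Snd1 on the plus strand at chr4:55758922-55760466. Ago1 lies on the minus strand at chr5:145810071-145815473, Ago2 on the minus strand at chr7:110828267-110828326, Tnrc6a on the plus strand at chr1:182050789-182050848 and Dgcr8 on the plus strand at chr11:84730710-84730769. The mapped span is longer than the probe for the brighter Drosha probe (1903 bases), Dicer1 (1688), Ago1 (5403), Tarbp2 (188) and Snd1 (1545), so these probes cross at least 1 exon boundary. The other 4 probes map to 60 unbroken bases. G and C made up 40% of the Dgcr8 probe and 43.3% to 51.7% of the others. None shared a run of more than 14 bases with any other probe of the array as printed 5′ to 3′, the related Ago1 and Ago2 probes included.

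Processed intensity at the 75th percentile was 246 to 261 on NC arrays and 289 to 323 on siRNA arrays, and signals below are log2 values relative to that percentile of the same array. The correlation of arrays was r = 0.986 to 0.993 inside the groups and 0.946 to 0.962 across them. Slide 1, scanned at 1 time, held the 4 NC arrays and slide 2, scanned at another, the 4 siRNA arrays, so the group cannot be told apart from the slide or the scan. Differences between the groups were frequent: 65.1% of 10819 measured genes passed the test (limma, Benjamini-Hochberg adjusted p under 0.05 over all tested probes), 36.1% higher and 29% lower in siRNA cells; among the 24861 probes the shares were 61.7%, 29.7% higher and 31.9% lower, and the 8 arrays did not overlap between groups for 62.5% of genes. Of 10 hepatocyte markers Alb, Ttr, Serpina1 and Tf were above background on 0 of 8 arrays, Cyp2e1 on all 8, Fgb on 7, Afp, Hnf4a and Apoa1 on 5 each and Apob on 3, and of the 5 measured 2 were called higher and 2 lower. Of 7 fibroblast markers with a probe 6 were above background on all 8 arrays, among them Col1a1 and Vim, and Thy1 on 2; of the 6 measured 2 were higher and 1 lower. Markers of other cell types moved with the groups too. Among 4 measured endothelial markers Kdr (1.65) and Cdh5 (above background on 0 NC and 4 siRNA arrays) were called higher, and Vwf and Tek (4 NC and 0 siRNA arrays) lower, with Pecam1 above background on 0 of 8. Of 3 measured cholangiocyte markers Krt7 was higher (1.75) and Sox9 and Spp1 lower, with Epcam above background on 0 of 8, and of 2 measured leukocyte markers Cd68 was lower (-2.39) and Cd14 not called, with Cd79a above background on 0 of 8. Their part in the results below was not tested.

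Drosha at its brighter probe, Dgcr8 and Dicer1 were 1.20 to 1.25 times as high in siRNA as in NC cells, with no overlap between the groups. Tarbp2, the partner of Dicer, did not pass the test, nor did Ago2, Tnrc6a and Snd1. Of the 7 measured members 3 were thus higher and 0 lower by limma (1 lower without siRNA replicate 2), against 36.1% and 29% of all measured genes. The 3 calls of 7 (42.9%) stand against 65.1% of all genes, and the median difference of the 7 members was 0.02 on the log2 scale, against 0.04 over all measured genes. No member reached a 2-fold difference, which 13% of measured genes did with a call. In such bulk samples, fewer cells of a type and less RNA per cell cannot be told apart.

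Drosha, the nuclease of the Microprocessor, gave log2 signals of 0.41, 0.25, 0.42 and 0.44 on NC replicates 1 to 4 and 0.69, 0.71, 0.60 and 0.75 on siRNA replicates 1 to 4. All siRNA arrays lay above all NC arrays. The difference was 0.30 ± 0.06 (SE, n = 4 per group; limma adjusted p = 0.00329), or 1.23-fold with a 95% interval of 1.12 to 1.36. The dimmer Drosha probe, which lies farther from the 3′ end of the transcript, gave -1.28, -1.35, -1.45 and -1.22 in NC and -1.36, -0.96, -1.06 and -1.21 in siRNA cells. There the groups overlapped, because siRNA replicate 1 lay among the NC arrays. Its difference of 0.17 ± 0.10 (SE) had the same sign and did not pass the test (limma adjusted p = 0.146), and it passed without siRNA replicate 1 (0.25, adjusted p = 0.0399, within a range of 0.00169 to 0.988 over 17 alternatives, 4 of which called it).

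Dgcr8, which binds the hairpin and positions Drosha on it, gave 0.42, 0.48, 0.40 and 0.59 in NC and 0.66, 0.74, 0.71 and 0.85 in siRNA cells. Again the groups did not overlap, with NC replicate 4 nearest to the siRNA arrays. The difference was 0.27 ± 0.06 (SE, n = 4 per group; limma adjusted p = 0.00769), or 1.20-fold (95% interval 1.08 to 1.33). The changes of Drosha and Dgcr8 differed by 0.04 on the log2 scale, and an exact permutation test over the 8 arrays gave p = 0.629 (two-sided). Xpo5, the next step of the chain, was not analysed here.

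Dicer1, which cuts the exported hairpin into the mature duplex, gave -1.06, -1.04, -1.03 and -0.81 in NC and -0.70, -0.65, -0.70 and -0.58 in siRNA cells. NC replicate 4 stood above the other NC arrays but below every siRNA array. The difference was 0.33 ± 0.07 (SE, n = 4 per group; limma adjusted p = 0.00373), or 1.25-fold (95% interval 1.13 to 1.40). Tarbp2, the double-stranded RNA-binding partner of Dicer, gave 1.20, 1.10, 1.09 and 1.22 in NC and 1.16, 1.11, 1.23 and 1.18 in siRNA cells. The 2 groups covered almost the same range, and the difference was 0.02 ± 0.05 (SE, limma adjusted p = 0.803), with a 95% interval from -0.11 to 0.14. The change of Dicer1 exceeded that of Tarbp2 by 0.31 on the log2 scale. An exact permutation test gave p = 0.0286, the smallest that 70 regroupings allow, and an adjusted p of 0.114 over the 4 pairs of partner genes tested.

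**Figure D1:**
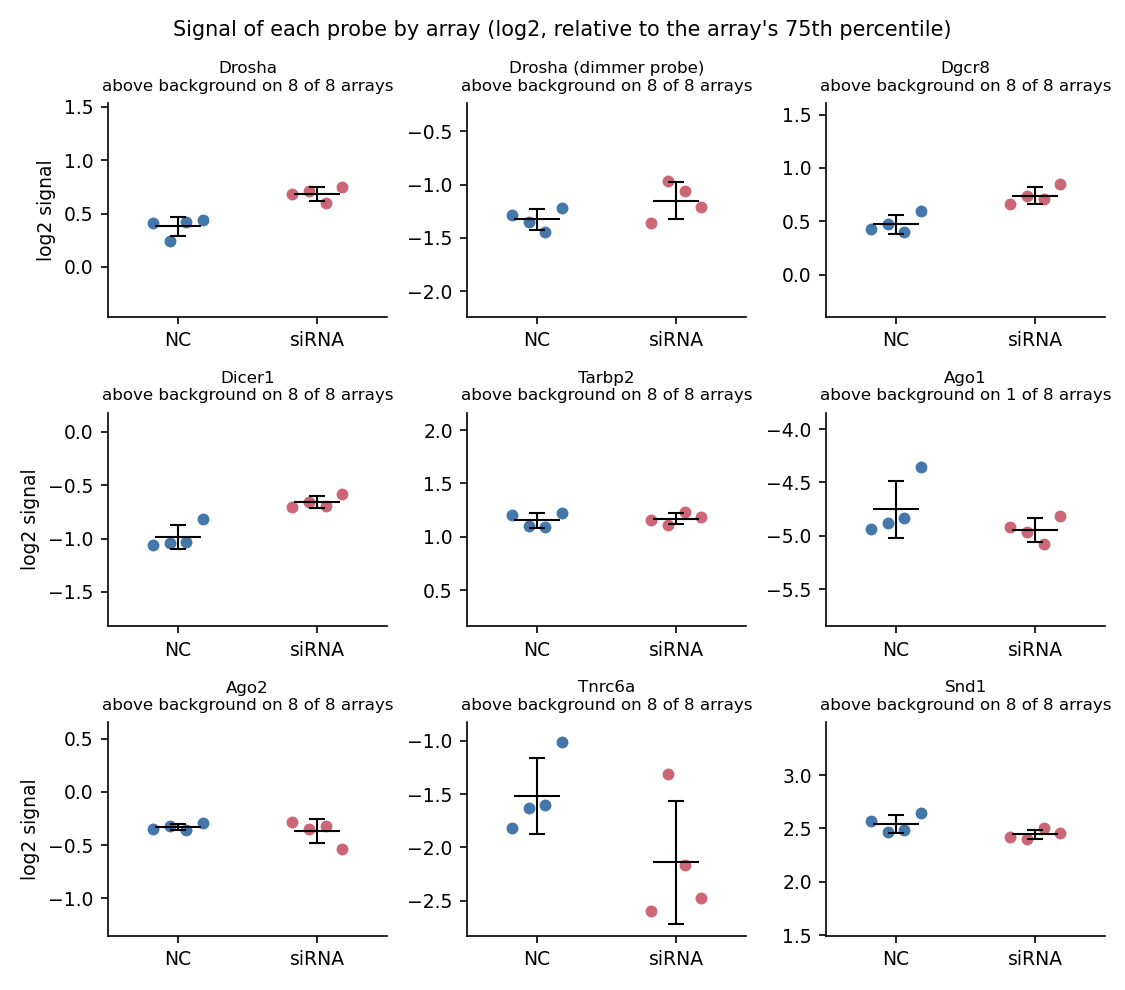
Log2 signal of each member probe relative to the array's 75th percentile (vertical axis, 2 log2 units in every panel) on the 4 NC arrays (blue) and the 4 siRNA arrays (red), with the mean ± SD in black. The siRNA arrays lie above every NC array for the brighter Drosha probe, Dgcr8 and Dicer1, while the groups overlap in the other 6 panels.

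Among the Argonautes, Ago2 gave -0.34, -0.32, -0.36 and -0.30 in NC and -0.28, -0.34, -0.32 and -0.53 in siRNA cells. Of the siRNA arrays 3 fell within or just above the NC range and siRNA replicate 4 lay below it. The difference was -0.04 ± 0.06 (SE, n = 4 per group; limma adjusted p = 0.608), and the 95% interval from -0.19 to 0.11 corresponds to 0.879 to 1.08 times the NC level. The Ago1 probe was well above background on NC replicate 4 alone. Its processed intensity was 8.52, 8.70, 8.62 and 12.7 in NC and 9.59, 9.83, 8.68 and 11.5 in siRNA cells, so Ago1 had no level that could be compared and was not tested. The other Argonautes were dim as well: Ago3 passed the background threshold on 2 arrays of NC and 1 of siRNA cells, and Ago4 on 0 of 8.

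Tnrc6a, which links Argonaute to mRNA decay, had the largest fitted difference of the 7 and the widest spread. Its signals were -1.82, -1.63, -1.61 and -1.01 in NC and -2.60, -1.32, -2.17 and -2.48 in siRNA cells. Of the siRNA arrays 3 lay below all NC arrays, whereas siRNA replicate 2 lay above 3 of the 4 NC arrays. The difference of -0.62 ± 0.30 (SE, n = 4 per group; 95% interval -1.32 to 0.07) did not pass the test (limma adjusted p = 0.105). It passed without siRNA replicate 2 (-0.90, adjusted p = 0.00926), and over 18 alternatives the adjusted p ranged from 0.00926 to 0.738. The changes of Ago2 and Tnrc6a differed by 0.58 on the log2 scale (exact permutation test, p = 0.114; adjusted p = 0.229 over 4 pairs). Snd1 gave 2.57, 2.47, 2.48 and 2.65 in NC and 2.42, 2.40, 2.50 and 2.46 in siRNA cells. These ranges overlapped through siRNA replicate 3, and the difference of -0.10 ± 0.06 (SE) did not pass the test (limma adjusted p = 0.163).

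The size of the 3 calls was ordinary for this series. A larger difference in either direction was found for 50.7% of measured genes in the case of Dicer1, 53.7% for Drosha and 58.4% for Dgcr8, and the median size among all called genes was 0.50. The calls of Tarbp2, Ago2 and Snd1 moved with the scaling between arrays. The median difference over all tested probes was -0.03 with the 75th percentile, 0.28 with median scaling and 0.48 with scaling to the spike-in controls. Under these 2 scalings 6 of the 7 members were called higher, including Ago2 (0.27 and 0.47), Tarbp2 (0.32 and 0.53) and Snd1 (0.21 and 0.41). Snd1 was called lower with quantile normalization (-0.20) and with the percentile taken over probes bright on all arrays (-0.17). A shift of whole arrays, as in the percentile, median and spike-in scalings, leaves a gene's difference relative to the median of all tested probes unchanged. On that footing Dicer1 was higher by 0.35 ± 0.07, Drosha by 0.33 ± 0.06 and Dgcr8 by 0.29 ± 0.06 (SE of the main scaling, also in the next sentence). There Tarbp2 stood at 0.04 ± 0.05, Ago2 at -0.01 ± 0.06, Snd1 at -0.07 ± 0.06 and Tnrc6a at -0.60 ± 0.30.

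**Figure D2:**
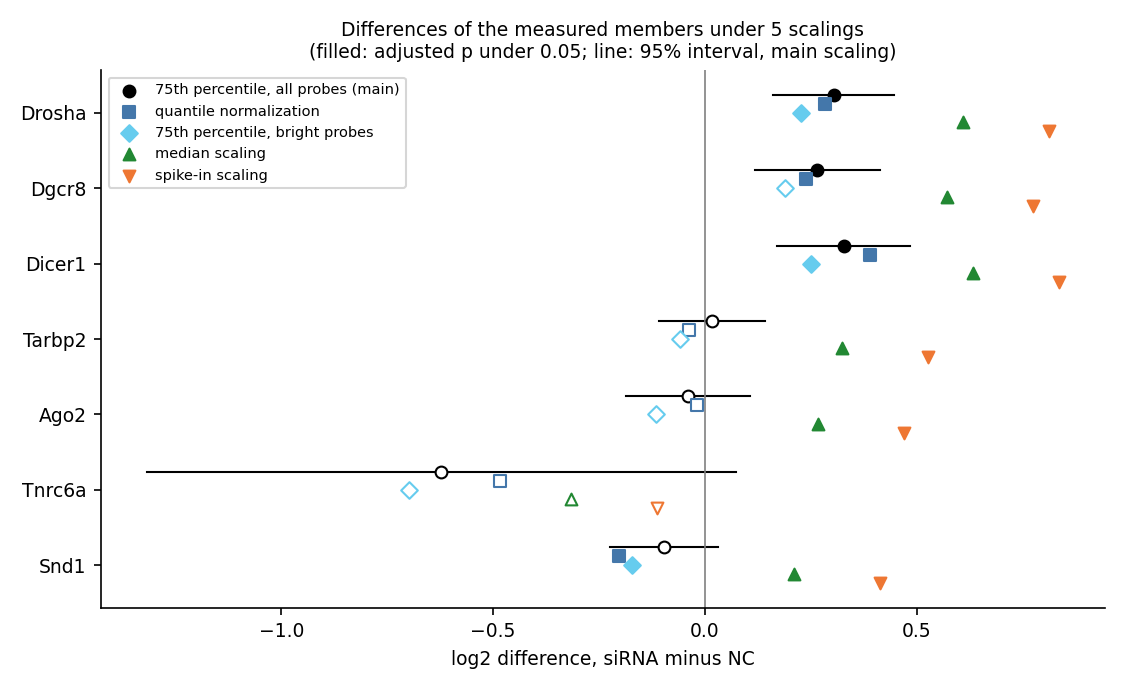
Log2 difference, siRNA minus NC (horizontal axis), of the 7 measured members under 5 scalings, with filled symbols for an adjusted p under 0.05 and a black line for the 95% interval of the main scaling. Drosha, Dgcr8 and Dicer1 lie to the right of 0 under all 5, Dgcr8 without a call under 1 of them (0.19), while Tarbp2, Ago2 and Snd1 lie on either side of 0 depending on the scaling.

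Unequal change between partners does not depend on the scaling of whole arrays, and 4 of the 6 planned pairs could be tested. Besides the pairs above, the changes of Dicer1 and Drosha differed by 0.02 on the log2 scale (exact permutation test, p = 0.686). The adjusted p of the 4 pairs ran from 0.114 to 0.686, with 1 of them at an unadjusted p of 0.0286 (exact permutation test). That is the smallest p that 70 regroupings allow, and 1 or 2 pairs at it cannot pass after adjustment over 4. That none passed therefore does not show equal change. The pairs with Ago1 and with Xpo5 gave no value. By the correlation of signals over the 8 arrays, the genes most like Tnrc6a, chosen as the member with the largest difference, were Farp2 (r = 0.925), Rtf1 (0.922) and Robo2 (0.909). These 8 arrays share 2 groups and 2 slides, and the correlations are given as a description.

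The wider small RNA pathway was described through 8 lists of 125 genes, of which 98 were measured. Of these 42 were higher and 27 lower (70.4% called, against 65.1% of all measured genes). With median scaling 65 were higher and 9 lower, with spike-in scaling 76 and 5, and over all measured genes the counts went from 3906 and 3133 to 6495 and 1657 and to 7426 and 1079. The genes that host microRNAs were listed for the hairpins they hold, not for a part in the pathway. They gave 13 of the 42 higher and 2 of the 27 lower genes under the main scaling. The largest differences lay outside the members. Counts under the main scaling come first below, and the next pairs of counts are higher and lower genes with median and with spike-in scaling. Over all measured genes 36.1% were higher and 29% lower under the main scaling. Each count rests on a gene's brightest probe, and some counted genes had another probe called in the other direction.

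Proteins that bind or help cut primary transcripts went both ways, with 9 of 13 measured genes higher, 3 lower and 1 not called (10 and 2, then 10 and 1). Ilf2 rose by 0.71 ± 0.09 (SE, limma adjusted p = 0.000351), with a second probe at 0.24 that was not called. Adar, which edits adenosine in double-stranded RNA, changed by -0.73 ± 0.07 (SE, limma adjusted p = 8.85e-05), from 2.35 to 2.42 in NC to 1.52 to 1.78 in siRNA cells. Both kept their signs under all scalings tried, although Adar was not called with spike-in scaling (-0.22). In nuclear transport 2 of 4 genes were higher and 1 lower (3 and 0, then 4 and 0). Xpo1, the general protein exporter, rose by 0.41 ± 0.06, Tnpo1 by 0.21 ± 0.04 (0.07 and not called at its second probe). Ranbp2, a nuclear pore protein, changed by -0.18 ± 0.06 (-0.80 at its second probe, also called), a value that turned positive with median (0.13) and spike-in (0.33) scaling. Ran, the small GTPase that Exportin-5 needs, did not pass the test (0.03 ± 0.05 SE, limma adjusted p = 0.657).

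Dicer's partners and loading factors had 7 of 16 genes higher, 4 lower and 5 not called (10 and 0, then 12 and 0). Prkra, the second double-stranded RNA-binding partner of Dicer beside Tarbp2, gave 0.49, 0.26, 0.25 and 0.33 in NC and 1.11, 1.16, 1.17 and 1.21 in siRNA cells. All siRNA arrays lay well above the NC arrays, with a difference of 0.83 ± 0.06 (SE, limma adjusted p = 3.11e-05). Gemin4, found in complexes with Argonaute, rose by 0.54 ± 0.09. Clp1, an RNA kinase that can phosphorylate siRNA ends, changed by -0.44 ± 0.06 (0.07 with spike-in scaling). The immunophilin Fkbp4, a cochaperone of Hsp90, changed by -0.30 ± 0.11 at its brightest probe and by 0.31 at another, so its direction was not settled.

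The 2 measured genes of the other GW-repeat proteins were Tnrc6b, higher by 0.22 ± 0.07 (SE, limma adjusted p = 0.0282), and Tnrc6c at 0.15 ± 0.06 (limma adjusted p = 0.0539; another probe at -0.28, not called). Both were called higher with median and spike-in scaling, and neither with quantile normalization or the percentile over bright probes. Among 11 genes that tail, methylate or degrade small RNA precursors 3 were higher and 4 lower (5 and 0, then 7 and 0). Tut4, which adds uridines to precursors, rose by 0.34 ± 0.07, and the exonuclease gene Xrn1 changed by -0.48 ± 0.08 (0.03 with spike-in scaling). Zswim8, a ubiquitin ligase adaptor for target-directed microRNA decay, changed by -0.35 ± 0.06 (0.16 with spike-in scaling). Dis3l2, which degrades uridylated precursors, had probes that disagreed, the brighter at 0.75 ± 0.06 and the second at -0.66, both called.

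Downstream of Argonaute, 6 of 27 genes of deadenylation, decapping and repression were higher, 11 lower and 10 not called (16 and 4, then 21 and 2). Btg2 and Tob1, antiproliferative proteins that bring the Ccr4-Not deadenylase to mRNAs, changed by -1.82 ± 0.10 and -0.90 ± 0.10 (SE, limma adjusted p = 7.11e-06 and 0.000169). Cnot6l, a catalytic subunit of that deadenylase, rose by 0.71 ± 0.09. Fmr1, a translational repressor, likewise had 1 probe at 0.59 ± 0.05 and a dimmer one at -0.63, both called. Of the germline PIWI pathway 5 of 13 genes were measured, with 1 higher and 2 lower (3 and 2 with both other scalings). Piwil1 was above background on 0 of 8 arrays. Piwil2 was above background on all 8, at a mean of 4.18 in NC and 4.17 in siRNA cells, and was not called (limma adjusted p = 0.898). Tdrkh, a Tudor protein of mitochondria, rose by 0.58 ± 0.07, with a second probe at 0.19 that was not called. Tdrd1 and Mael, germ cell proteins of that pathway, were measurable in every NC sample but above background in 0 of 4 siRNA samples. They were kept through the NC arrays alone, so their calls rest on siRNA signals not above background and are not taken as support. In siRNA cells they were at least 5.38-fold and at least 4.24-fold lower. These bounds hold for the main setting only: with normexp background correction, which adds an offset of 50 to the intensity, the log2 differences were -1.02 and -0.87 and did not pass (limma adjusted p = 0.0650 and 0.0780), and without the dimmest spots they were -0.64 and -0.47 and passed. The bound sets the NC mean against, per siRNA array, the probe's own signal or the dimmest signal that still counted as above background, whichever was higher.

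**Figure D3:**
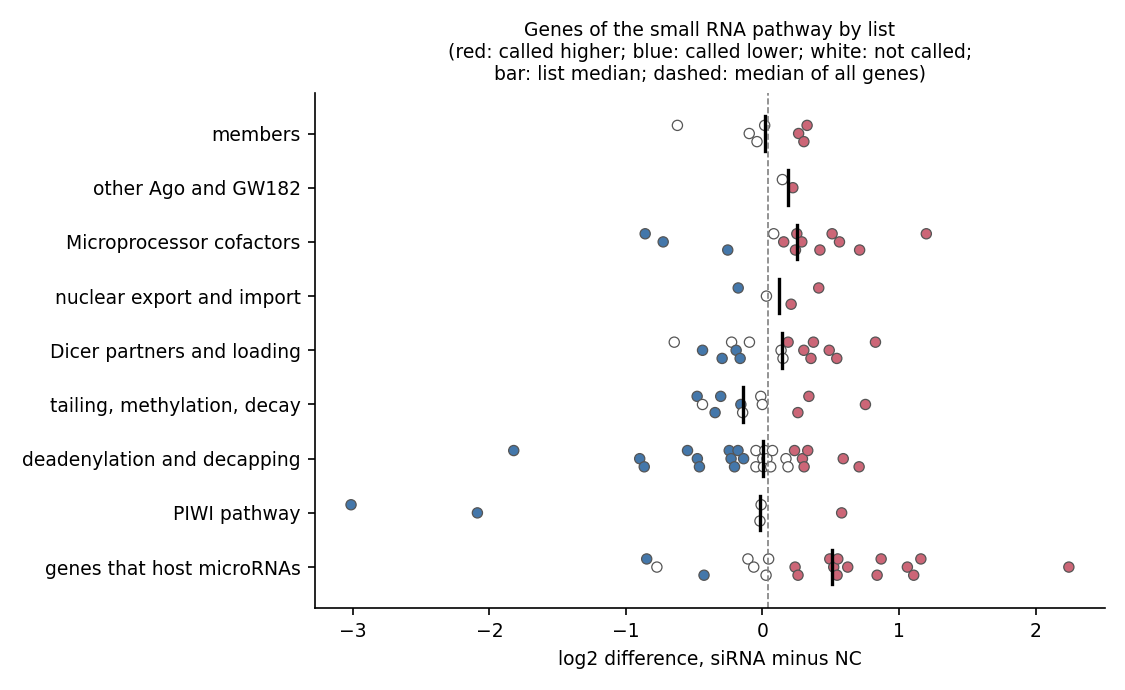
Log2 difference, siRNA minus NC (horizontal axis), of each measured gene in the members and the 8 pathway lists (rows), coloured by call, with each list's median as a bar and the median of all measured genes (0.04) as a dashed line. Values for Tdrd1 and Mael are fitted differences, not set against the floor. The members lie within 0.33 of 0 apart from Tnrc6a, while the widest differences belong to PIWI pathway genes and to Igf2.

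The arrays did not measure microRNAs, but many hairpins lie inside genes whose mRNA was measured. Of 20 measured genes listed by name as hosts 13 were higher and 2 lower (16 and 1, then 17 and 0). By RefSeq positions on GRCr8, 13 of the 20 hold a hairpin on the same strand, 9 of them higher and 0 lower by limma, with 4 that did not pass (11 and 0, then 12 and 0; 8 and 1 with the percentile over bright probes). Taking every RefSeq gene that holds a hairpin instead, 32 of 73 measured hosts were higher and 16 lower (65.8% called, against 65.1% of all genes, with a median of 0.16). Dgcr8 is itself among those hosts, since the miR-1306 hairpin lies within it. The mature sequences below belong to called hosts of the list and are shown to compare their seeds, bases 2 to 8, which are in capitals.

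rno-miR-26a-5p: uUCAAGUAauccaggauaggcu
rno-miR-26b-5p: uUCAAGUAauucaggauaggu
rno-miR-103-3p: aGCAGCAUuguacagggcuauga
rno-miR-107-3p: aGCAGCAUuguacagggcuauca
rno-miR-342-3p: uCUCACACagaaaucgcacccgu
rno-miR-218a-5p: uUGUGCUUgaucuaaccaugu
rno-miR-93-5p: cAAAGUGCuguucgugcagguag
rno-miR-25-3p: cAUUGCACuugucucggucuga

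These sequences are those of RefSeq on GRCr8, where for example miR-26a-5p lies at chr8:127633063-127633084 and miR-26b-5p at chr9:83425723-83425743, both on the plus strand. They fall into 2 pairs with the same seed and 4 others. miR-26a and miR-26b share a seed, and their hosts are the phosphatase genes Ctdspl and Ctdsp1, which rose by 1.16 ± 0.11 and 0.62 ± 0.06 (SE, limma adjusted p = 6.71e-05 and 0.000103). Ctdspl lay between -0.31 and 0.09 on NC arrays and between 0.90 and 1.22 on siRNA arrays. Of 3 other Ctdspl probes tested, 1 stood at 0.80 and the rest are not reported here, whereas the second Ctdsp1 probe stood at 0.02. miR-103 and miR-107 also share a seed, and their hosts are genes for pantothenate kinases, the first enzymes of coenzyme A synthesis. Pank2 rose by 0.55 ± 0.07 and Pank1 by 0.52 ± 0.11, while Pank3, which holds another miR-103 hairpin, stood at -0.06 ± 0.05 (limma adjusted p = 0.315).

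The other called hosts carried unrelated seeds. Evl, an actin regulator that hosts miR-342, rose by 1.11 ± 0.08, and Slit3, a guidance ligand that hosts miR-218a, by 1.06 ± 0.05. Mcm7, a subunit of the replicative helicase that hosts miR-25 and miR-93, rose by 0.55 ± 0.18 (SE, limma adjusted p = 0.0296), with NC arrays from 0.25 to 0.95 and siRNA arrays from 0.86 to 1.49. Its groups overlapped. Smc4, a condensin subunit that hosts miR-16, had 1.58 to 1.74 in NC cells and 2.20, 2.20 and 2.22 on 3 siRNA arrays, but -3.01 on siRNA replicate 1, so it did not pass (-0.77 ± 1.15). Igf2, the fetal growth factor gene that hosts miR-483, rose by 2.24 ± 0.05 (limma adjusted p = 1.44e-07), and Copz1, the host of miR-148b, by 0.24 ± 0.05. Slit2 and Egfl7, listed by name but without a hairpin on their strand in the RefSeq table, changed by -0.85 ± 0.15 and -0.43 ± 0.10, the latter standing at 0.08 with spike-in scaling. Whether any of these microRNAs changed with its host was not measured.

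**Figure D4:**
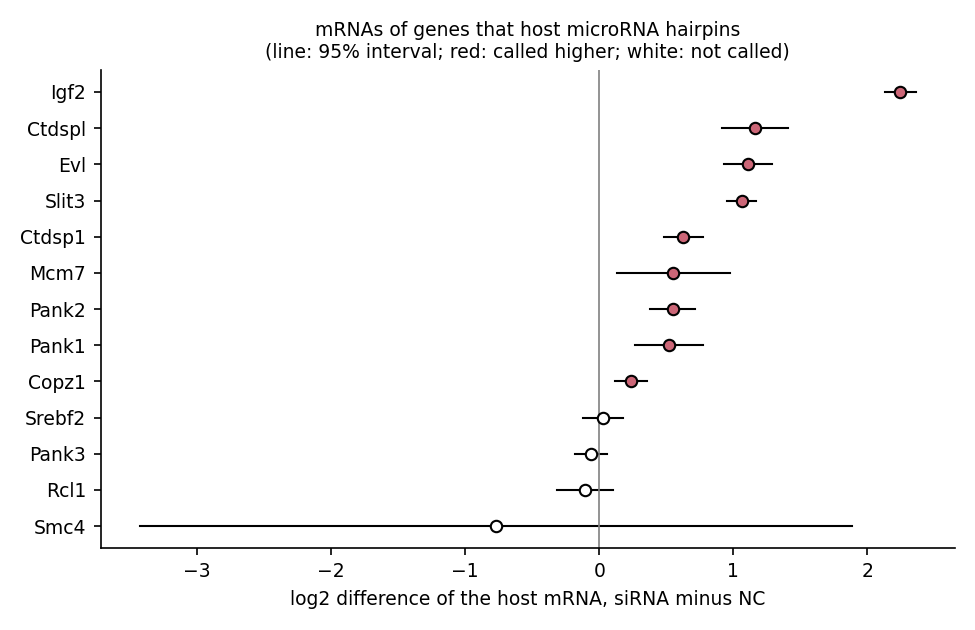
Log2 difference of the host mRNA, siRNA minus NC (horizontal axis), for the 13 measured genes of the list that hold a microRNA hairpin on the same strand, with 95% intervals and red points for genes called higher. The 9 called hosts lie between 0.24 and 2.24, and the 4 others have intervals that include 0, widest for Smc4.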

How the data were processed

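Total RNA of 8 cell samples was measured on Agilent 1-colour arrays, 1 per sample. Per the file headers, the authors' scanner files come from Agilent Feature Extraction 12.0.3.1 (12.0 in the submitters' processing notes) and hold each spot's processed intensity on a linear scale, after spatial and multiplicative detrending within the array and with surrogate values switched on for dim spots. The authors' deposited table of log2 values covers 86 probes, of which 0 are member probes, so it was not used. Intensities were taken to log2 and the array's 75th percentile was subtracted. Control spots and outlier spots (129 to 174 per array) were left out, and 0 spots were saturated. Probes well above background on at least 3 of 4 arrays of a group were kept (24861), with the brightest of a gene's kept probes standing for the gene. Names came through RefSeq's GRCr8 table.

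The test was limma 3.58.1 (R 4.3.3, two-sided), tested on simulated data, with adjusted p under 0.05 over all kept probes as the call. No set test was run. Alternatives covered background correction, scaling, the filter on dim probes, the replicate block, the choice of probe, and leaving out each array. Members and lists were chosen with earlier results of these data known. Named list genes are the 2 called genes per direction with the largest differences in each list. For Tnrc6a, the member with the largest difference, the 3 genes with the highest correlation are named. Ran, Tnrc6c, Ago3, Ago4, Piwil1, Piwil2, the markers and the further hosts were chosen after their values were seen. Of the list genes that the rule on largest differences names, 2 are not reported here.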

Additional observations from a re-analysis of the deposited data

Results flagged for a closer look

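A sample that stood far from the other 3 of its group was looked for in 98 groups of 4 arrays. These were the member probes and most other genes named, where chance alone marks about 1 group in 20. Such a sample was found for 6. Dicer1 was highest on NC replicate 4 (-0.81, the next NC array at -1.03), and Drosha at its brighter probe was lowest on NC replicate 2 (0.25, next 0.41). In the lists, Ranbp2 was lowest on siRNA replicate 3 (3.67, next 3.86), Smc4 was lowest on siRNA replicate 1 (-3.01, next 2.20), Gemin4 was lowest on siRNA replicate 4 (1.83, next 1.96) and Tdrkh was highest on NC replicate 1 (0.64, next 0.53). Without NC replicate 4 the difference of Dicer1 was 0.38, and without NC replicate 2 that of Drosha was 0.26, both still called by limma.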

How the results depend on the processing

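Of the 3 calls among the members, Drosha and Dicer1 held in 17 and Dgcr8 in 16 of 18 alternatives. These alternatives are not independent, since leaving out arrays, changing the filter and adding the replicate block reuse the same scaled values. With normexp background correction 3648 probes were called instead of 15333, with 0 members higher and 18 list genes higher and 2 lower; there Snd1 stood at 0.16, the dimmer Drosha probe at -0.0037 and Ranbp2 at 0.060, and the partner differences were -0.045 (Drosha and Dgcr8), -0.030 (Dicer1 and Tarbp2) and -0.19 (Dicer1 and Drosha). The background mean fitted by normexp was -387 on NC replicate 1 and between -2.12 and 10.3 on the other arrays. Without the 10 spots no brighter than their background it was 6.87 on NC replicate 1. Normexp with the same offset was also run without such spots on every array (0 to 10 per array), an alternative chosen after seeing the data. It gave 15347 called probes in either direction, 3 members higher and 0 lower, and Drosha and Dgcr8 differed by -0.037. Median scaling called 6 members and 65 list genes higher and 9 list genes lower, with Ago2 at 0.27, Snd1 at 0.21, Ranbp2 at 0.13 and Fkbp4 at 0.011. Spike-in scaling called 6 members and 76 list genes higher and 5 lower, with Ago2 at 0.47, Snd1 at 0.41, Ranbp2 at 0.33, Clp1 at 0.070, Fkbp4 at 0.21, Xrn1 at 0.031, Zswim8 at 0.16 and Egfl7 at 0.081. Quantile normalization and the percentile over bright probes each called 1 member lower, Snd1, and put Tarbp2 at -0.038 and -0.060. With the mean over probes, Fkbp4 was 0.19, Fmr1 -0.018 and Drosha minus Dgcr8 -0.026. The cause of the changes under these alternatives was not tested. Leaving out each array in turn gave 13605 to 15118 called probes, 3 members higher throughout, 0 to 1 lower (Tnrc6a without siRNA replicate 2), 38 to 44 list genes higher and 20 to 23 lower. Over these fits Ago2 ran from -0.069 to 0.016, Tarbp2 from -0.0050 to 0.040, Drosha minus Dgcr8 from -0.0072 to 0.078 and Dicer1 minus Drosha from -0.011 to 0.061. Dicer1 minus Tarbp2 had p = 0.0286 in each, the smallest that 35 regroupings allow (exact permutation test, adjusted p from 0.0571 to 0.114). Ago2 minus Tnrc6a had the same p without siRNA replicate 2 (adjusted p = 0.0571). No pair passed after adjustment, which 1 or 2 pairs at that smallest p could not do. The replicate block gave 14990 called probes, 3 members higher and 0 lower, and 41 and 24 list genes, and Tnrc6b and Ranbp2 lost their calls; same-numbered arrays deviated together weakly (r = 0.01, 0.03, -0.03 and 0.21), so the numbers were not taken as pairs. The authors' table holds 0 member probes and gave no value. Ago1 and other dim probes are limited by signal over background.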

Other observations

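Among all genes that hold a microRNA hairpin by RefSeq position, the largest differences were found in 2 genes outside the lists, chosen after their values were seen. Arpp21, the host of miR-128-2, gave -1.04, -0.66, -0.67 and -0.93 in NC cells and was above background on 0 of 4 siRNA arrays. Its fitted difference was -5.80, a call not taken as support, since the gene was kept through the NC arrays alone. At this probe the NC mean stood 33.7-fold above the dimmest siRNA signals that counted as above background. A second probe stood at -1.46 (limma adjusted p = 0.000318), so the size of the difference was not settled. Mrc1, the mannose receptor gene that hosts miR-511, gave 0.40, 0.67, 0.66 and 0.37 in NC and -4.49, -4.91, -3.23 and -6.04 in siRNA cells. It was above background on 1 of the 4 siRNA arrays and was likewise kept through the NC arrays alone. Its fitted difference was -5.19, with a second probe at -4.05.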
